A study of Homo sapiens with 6 samples.

Results

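The histone genes of C4-2B prostate cancer cells were examined by class in an RNA sequencing comparison of 2 conditions, C and V. Members were taken by symbol, as every gene whose name starts with that of an H1, H2A, H2B, H3, H4 or macroH2A histone, and 51 of the 6018 genes in the authors' deposited table met that rule. The 50 described here comprise 40 replication-dependent genes, the replacement variant H2AZ1, 2 H2B copies on chromosome 21 and 7 pseudogenes. C4-2B is an established human line of the LNCaP lineage that grows at castrate androgen levels. The series holds 3 libraries of C42-B-Abi, a subline taken through stepwise abiraterone of 1 to 20 µM for at least 6 months, then kept in 5 µM and labelled passage 15 to 18. It also holds 3 libraries of C42B, the parental line carried in 1% DMSO and labelled passage 0. Both lines grew in 10% serum, and passage number cannot be told apart from line. Abiraterone blocks CYP17A1, an enzyme of androgen synthesis. The extraction protocol mentions 10 µM abiraterone without making plain whether both lines received it. The labels describe 1 selection and do not say that the libraries of either line came from separate cultures. The p-values may therefore measure technical spread only.

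The values come from the authors' own DESeq2 comparison of C over V, which has no column per library, so depth and the spread between libraries are unknown. A positive log2 fold change means higher in C. Its header calls C control and V vehicle and ties neither to a cell line. The titles of the C42B libraries carry a V and no title has a separate letter C, so a direction names C or V and is not turned into a statement about either line. The authors' deposited table lists only genes whose p is under 0.05 and whose log2 fold change is 1.20 or more in size. A histone gene that is not in it may have missed either limit, and nothing follows about its level. Called genes are those with a listed adjusted p below 0.05. The error after each fold change is the listed standard error, and intervals are 95%, from 1.96 standard errors. Levels in C and in V are not listed. They were worked out as the 2 means that average to the listed mean and stand in the listed ratio, which takes C and V to hold the same number of libraries. They carry no error. Of 12 prostate epithelial markers, the authors' deposited table lists KLK2 (2.59 ± 0.08) and KLK3 (2.17 ± 0.07), both secreted kallikreins and higher in C, and the keratin KRT8 (-1.45 ± 0.10), higher in V. The other 9 markers are not listed.

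Nucleosomes wrap DNA around an octamer of core histones H2A, H2B, H3 and H4, and linker histone H1 binds where the DNA enters and leaves. Replication-dependent histones are made in bulk in S phase from intronless genes grouped on chromosomes 6 and 1. Their messages end in a conserved stem-loop instead of a poly(A) tail, and the stem-loop binding protein SLBP uses it for processing, translation and timed decay. Replacement variants such as H2AZ1 are made through the cell cycle from single genes with polyadenylated messages. Because most clustered messages have no tail, how a library was made decides whether they are captured. The labels' protocol names 2 kits, TruSeq V2 RNA-Seq, a kit known for selecting poly(A) messages, and TruSeq Stranded Total RNA, which needs no tail, and does not say which libraries were made with which. Kit and condition cannot be told apart here. In these bulk samples, fewer cells in S phase and less histone RNA per cell cannot be told apart either.

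The stem-loop was searched by its conserved letters in GENCODE 29 transcripts (GRCh38), and a single-exon transcript of 17 replication-dependent members holds it. It was present in 16 of the 16 members with a single-exon model that reaches at least 60 bases past the stop codon. Another 23 members have only shorter single-exon models, of which H4C11 holds it. Spliced transcripts and those without an annotated stop codon were left out of these counts. H2BC11, among the 23, has 3 annotated transcripts. It lies 22 to 56 bases after the stop codon. Over the release, 35 of 19922 protein-coding genes (0.176%) hold it in a transcript. The examples below, 5′ to 3′ on the gene's strand in DNA letters, were chosen to show each core class, a pair from H2A, H2B and H4 and one from H3. Capitals mark the 16 bases of the stem-loop, and 5 bases are shown on each side. They lie at chr6:27808642-27808667 on the plus strand (H2AC13), chr6:27133510-27133535 plus (H2AC11), chr6:26158582-26158607 plus (H2BC5), chr1:149886183-149886208 minus (H2BC21), chr1:149853100-149853125 plus (H3C15), chr6:27824454-27824479 plus (H4C11) and chr1:149833027-149833052 plus (H4C14), each in the 3′ UTR of its gene.
H2AC13: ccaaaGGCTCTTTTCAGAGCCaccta
H2AC11: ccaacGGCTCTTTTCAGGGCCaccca
H2BC5: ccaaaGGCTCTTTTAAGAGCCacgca
H2BC21: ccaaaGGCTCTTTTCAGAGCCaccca
H3C15: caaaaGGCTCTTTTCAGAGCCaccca
H4C11: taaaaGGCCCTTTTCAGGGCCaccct
H4C14: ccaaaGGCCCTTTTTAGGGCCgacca
The stem divided by class. Its left arm reads GGCTCT in 13 of the 17 genes, which are all 3 H2A, all 8 H2B and both H3 genes with a stem-loop, and GGCCCT in all 4 H4 genes. The loop of 4 bases reads TTTC in 13 genes, TTTA in 2 H2B genes and TTTT in 2 H4 genes.

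Replication-dependent histone genes were higher in C in every class. Of the 50 members described, 48 were called higher in C and 1 in the direction of V, against 46% of all listed genes called higher in C and 43.4% called higher in V. Among listed protein-coding genes the background was 31.6% in the direction of C and 61% in that of V. All 40 replication-dependent members listed were called higher in C, and no listed gene of H1, H2A, H2B, H3 or H4 within the clusters was higher in V. Their median log2 fold change in the authors' deposited table was 2.13, against 1.24 over all called genes and -1.55 over called protein-coding genes. Among called genes higher in C, the median was 2.30 over all types and 1.77 over protein-coding genes. Summed over the 40 genes, the derived levels came to 94019 in C and 23452 in V, in normalised counts, a ratio of 4.01. The one member not called was the pseudogene H2BC2P, with an adjusted p of 0.0579 in the authors' deposited table.

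**Figure D1:**
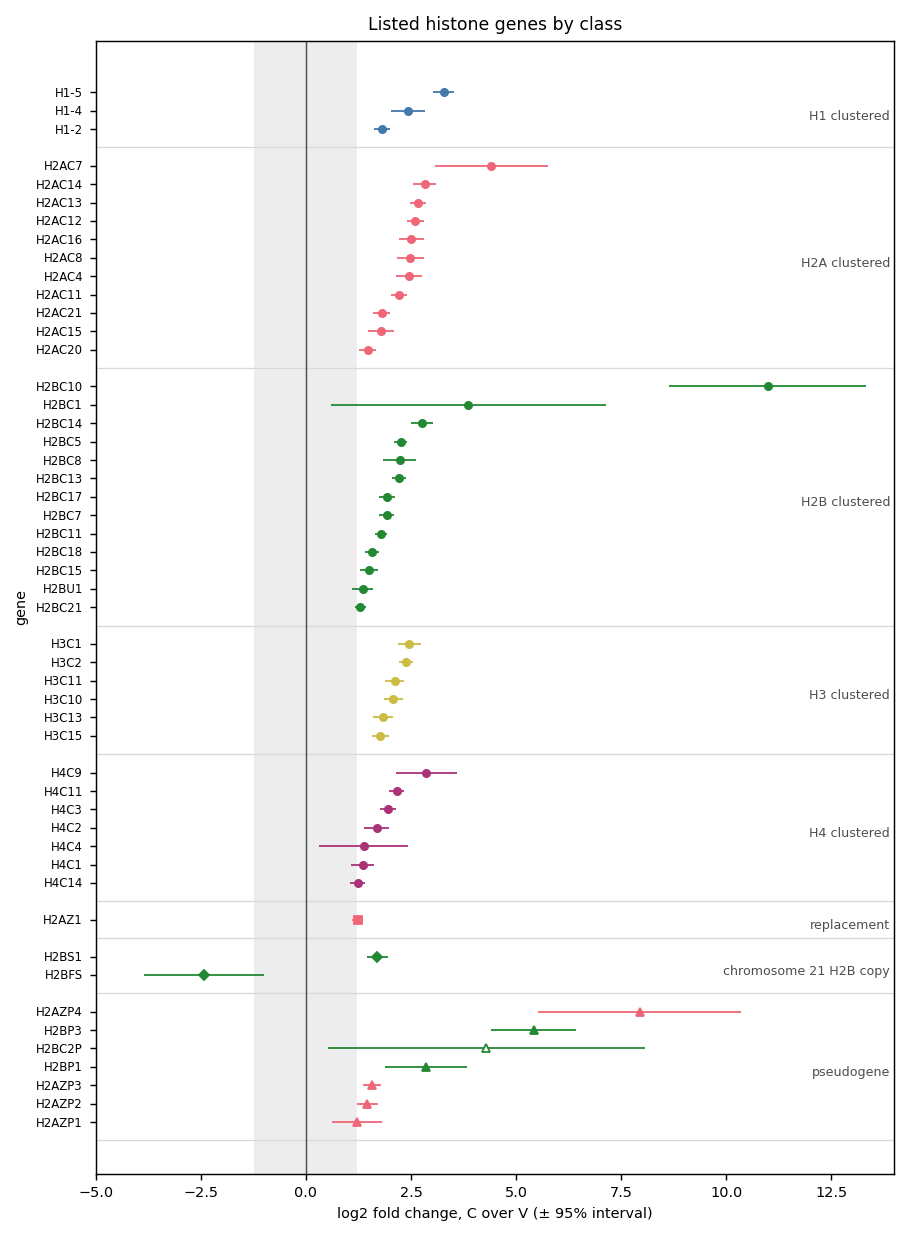
Log2 fold change of C over V (x axis) for each of the 50 histone genes described (y axis), grouped by class, from the authors' deposited table. Points are the listed fold changes, bars their 95% intervals, the open symbol marks H2BC2P, which was not called, and the grey band reaches 1.20 on either side of 0, where no gene is listed. Among the genes drawn, H2BFS alone lies left of 0.

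The listed genes are not the whole family. The gene name table names 70 replication-dependent genes, of which 30 are not listed. Listed were 3 of 6 H1 genes, 11 of 17 H2A genes, 13 of 18 H2B genes, 6 of 14 H3 genes and 7 of 15 H4 genes. Unlisted members include H1-1, H1-3 and the testis gene H1-6, the neighbours H2BC4 and H2AC6, H3C3, H3C4 and H3C12, and H4C5, H4C6 and H4C8. Since all listed genes had to pass the fold limit, the medians describe the listed genes only.

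The linker histones had the largest ratio of summed derived levels among the classes. Summed over H1-2, H1-4 and H1-5, the derived levels came to 25138 in C and 4599 in V, a ratio of 5.47. H1-5, a single-exon linker histone gene (chr6:27866849-27867529, minus strand), had a derived level of 9762 in C and 1007 in V. Its log2 fold change in the authors' deposited table was 3.28 ± 0.13 (adjusted p = 1.25e-142). Its interval, 3.03 to 3.53, lay above those of the other listed H1 genes. H1-4 had 7863 in C and 1458 in V, and its listed fold change was 2.43 ± 0.21 (adjusted p = 3.04e-30 in the authors' deposited table). H1-2, known to make a poly(A) form too, had 7514 in C and 2133 in V, with a listed fold change of 1.82 ± 0.10 (adjusted p = 1.96e-72 in the authors' deposited table). The intervals of H1-4 (2.02 to 2.84) and H1-2 (1.62 to 2.01) were close, and none of the 3 overlapped another. The authors' estimate for H1-4 is less certain than for the other 2, with a standard error exceeded by 22 of the 222 other listed genes of mean 1000 to 10000 (9.91%).

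Among H2A genes, all 11 listed were called higher in C, with a median of 2.48 and a range of 1.47 to 4.40 in the authors' deposited table. These genes encode near-identical proteins, which pair with H2B in the nucleosome. Summed, the derived levels were 14757 in C and 3130 in V, a ratio of 4.71. H2AC13 had the smallest p of the class, with a derived level of 3651 in C and 572.6 in V and a listed fold change of 2.67 ± 0.10 (adjusted p = 4.16e-157 in the authors' deposited table). The intervals of H2AC13, H2AC12 and H2AC14 overlap one another, and that of H2AC11, reaching 2.41, overlaps that of H2AC12 but not those of H2AC13 and H2AC14. H2AC12 had 1966 in C and 324.4 in V, and H2AC11 had 2833 in C and 606.3 in V. Their listed fold changes were 2.60 ± 0.10 (adjusted p = 9.92e-143) and 2.22 ± 0.10 (adjusted p = 2.75e-114) in the authors' deposited table. For H2AC14, 721.9 in C and 102.1 in V gave 2.82 ± 0.14 (adjusted p = 9.98e-93 in the authors' deposited table). Both ends of the class differ from these in position or in reads. At the low end stood H2AC20 on chromosome 1, with 2062 in C and 742.7 in V and a listed change of 1.47 ± 0.10 (adjusted p = 4.70e-44 in the authors' deposited table). The high end was H2AC7, a gene of few reads, with 47.9 in C and 2.26 in V and a listed change of 4.40 ± 0.69 (adjusted p = 9.27e-10 in the authors' deposited table). Its interval, 3.06 to 5.75, overlaps that of H2AC14 (2.55 to 3.09). The other 5, H2AC4, H2AC8, H2AC15, H2AC16 and H2AC21, lay between 1.79 and 2.51 in the authors' deposited table.

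H2B, with 13 listed genes, all called higher in C, covered the widest range of fold changes. Its proteins form dimers with H2A and carry the site of H2B ubiquitination. The class median was 1.93 in the authors' deposited table, and the summed derived levels were 18579 in C and 5378 in V, a ratio of 3.46. H2BC5 had 4574 in C and 961.3 in V, with a listed change of 2.25 ± 0.08 (adjusted p = 2.99e-168, the smallest of all members in the authors' deposited table). H2BC13 had 1118 in C and 239.8 in V, and a listed change of 2.22 ± 0.08 (adjusted p = 3.06e-155 in the authors' deposited table). H2BC11 had 1273 in C and 369 in V, with 1.79 ± 0.08 (adjusted p = 3.15e-117 in the authors' deposited table). H2BC7 is the gene that shares its start region with H2AC7. With 853.2 in C and 225.7 in V, it was listed at 1.92 ± 0.09 (adjusted p = 2.18e-107 in the authors' deposited table). The intervals of H2BC5 and H2BC13 overlap, and both lie above that of H2BC11. The smallest change was that of H2BC21, which encodes the H2B protein known as type 2-E, with 3133 in C and 1277 in V and a listed change of 1.29 ± 0.07 (adjusted p = 2.43e-73 in the authors' deposited table).

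H2BC10 stood apart from the other replication-dependent genes. It is a single-exon gene at chr6:26272976-26273356 on the plus strand. Its derived level was 342.2 in C and 0.168 in V, and its listed change was 10.99 ± 1.20 (adjusted p = 4.90e-19 in the authors' deposited table). With a level under 1 normalised count in V, the fitted value depends on the estimator and sets no bound. The other 36 replication-dependent members with a mean of at least 100 lay between 1.23 and 3.28. H2BC1, the H2B gene known for expression in testis, was at 3.28 in C and 0.225 in V, a gene of very few reads. Its listed change of 3.87 ± 1.67 had an adjusted p of 0.0469 in the authors' deposited table. The remaining 6 genes, H2BC8, H2BC14, H2BC15, H2BC17, H2BC18 and H2BU1, lay between 1.35 and 2.77 in the authors' deposited table.

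Histone H3 had 6 listed genes, all called higher in C, with the narrowest spread, from 1.77 to 2.46 around a median of 2.10 in the authors' deposited table. The tails of H3 carry many of the known regulatory histone marks. The summed derived levels were 17765 in C and 4359 in V, a ratio of 4.08. H3C2 had 5486 in C and 1051 in V, with a listed change of 2.38 ± 0.09 (adjusted p = 3.41e-159 in the authors' deposited table). H3C11 had 666.1 in C and 154.4 in V, with 2.11 ± 0.11 (adjusted p = 1.18e-73 in the authors' deposited table). For H3C1, 670.3 in C and 121.6 in V gave 2.46 ± 0.13 (adjusted p = 6.46e-73 in the authors' deposited table). These 3 intervals overlap. H3C15, one of the H3.2 genes on chromosome 1, had 7197 in C and 2106 in V and was listed at 1.77 ± 0.10 (adjusted p = 3.22e-70 in the authors' deposited table). The intervals of H3C2 (2.21 to 2.56) and H3C15 (1.58 to 1.97) did not overlap. H3C10 was listed at 2.08 and H3C13 at 1.83 in the authors' deposited table.

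Histone H4 had the lowest class median, 1.68, over 7 listed genes that were all called higher in C. These genes encode the same protein, which pairs with H3 at the centre of the nucleosome. Their summed derived levels were 17780 in C and 5986 in V, a ratio of 2.97. H4C11 had 3572 in C and 800.4 in V, with a listed change of 2.16 ± 0.09 (adjusted p = 2.44e-121 in the authors' deposited table). H4C3 had 3139 in C and 812 in V, with 1.95 ± 0.10 (adjusted p = 3.25e-84 in the authors' deposited table). The intervals of H4C11 and H4C3 overlap, and both lie above that of H4C14, which ends at 1.41. H4C14, on chromosome 1, had 6422 in C and 2739 in V and was listed at 1.23 ± 0.09 (adjusted p = 5.80e-40 in the authors' deposited table), the smallest change of all 40. H4C2, with 2045 in C and 638.6 in V, was listed at 1.68 ± 0.15 (adjusted p = 1.27e-27 in the authors' deposited table). H4C9, at 47.7 in C and 6.56 in V, had the largest change of the class, 2.86 ± 0.37 (adjusted p = 1.20e-13 in the authors' deposited table). The last genes of the class were alike in fold and unlike in error. H4C1 was listed at 1.35 ± 0.14 and H4C4 at 1.37 ± 0.54 in the authors' deposited table. H4C4 had 1983 in C and 766 in V, yet its interval, 0.31 to 2.43, was the widest of the 18 replication-dependent genes with a mean of at least 1000, and its adjusted p in the authors' deposited table was 0.0275.

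**Figure D2:**
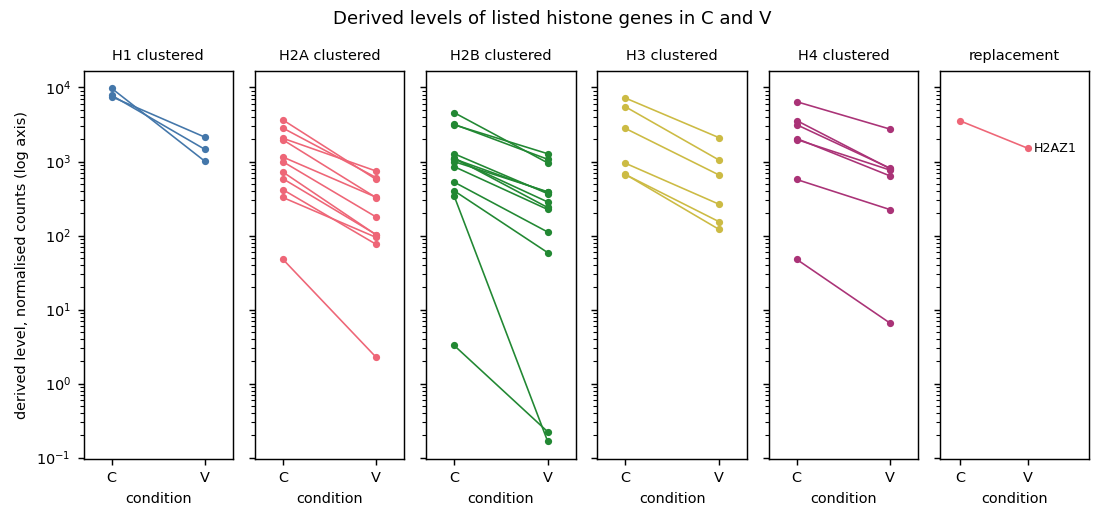
Derived levels in C and V (normalised counts, log axis) of the listed replication-dependent genes by class and of the replacement variant H2AZ1, 1 line per gene, with no error since the levels were derived. Every gene drawn is higher in C.

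The replacement variant H2AZ1 was called higher in C, with a smaller listed change than most clustered genes. H2AZ1, which encodes the variant H2A.Z.1 found at promoters, lies at chr4:99948086-99950388 on the minus strand. Its derived level was 3528 in C and 1501 in V, with a listed change of 1.23 ± 0.07 (adjusted p = 4.67e-75 in the authors' deposited table). Its interval, 1.10 to 1.36, overlapped those of 8 replication-dependent genes, H2AC20, H2BC1, H2BC15, H2BC21, H2BU1, H4C1, H4C4 and H4C14, and lay below the replication-dependent median of 2.13. The replication-dependent median exceeded the listed change of H2AZ1 by 0.90, a difference with no test. H2AX, H2AZ2, MACROH2A1, H1-10, and H3-3A and H3-3B, which encode H3.3, are replacement genes that are not listed. The centromere histone gene CENPA is not listed either.

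Outside the clusters, both chromosome 21 copies of H2B were called, in opposite directions. H2BS1 (chr21:43565189-43565648, plus strand) had 1856 in C and 570.4 in V, with a listed change of 1.70 ± 0.12 (adjusted p = 3.54e-42 in the authors' deposited table). H2BFS (chr21:5972924-5973383, minus strand) had 2.38 in C and 12.7 in V, with a listed change of -2.42 ± 0.73 (adjusted p = 0.0028 in the authors' deposited table). All stretches of 50 bases, the read length, in either transcript recur in another annotated gene, so how reads were divided between the copies is uncertain and their signs cannot be assigned to 1 locus each.

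Of the 7 histone pseudogenes, 6 were called, all higher in C, with a median of 2.22 in the authors' deposited table. Over all listed genes, 5380 of 6018 were called and 46% were called higher in C. Called genes higher in C had a median of 2.30, so the pseudogene median is close to that of such genes. The H2AZ1 copies H2AZP3 (1.58 ± 0.11) and H2AZP2 (1.46 ± 0.13) stood beside 1.23 ± 0.07 for H2AZ1 itself in the authors' deposited table. H2AZP3 had 1080 in C and 361.4 in V, and 18.9% of its 50-base stretches recur in H2AZ1 or H2AZP2. H2AZP4 had 61.2 in C and 0.249 in V, with a listed change of 7.94 ± 1.23, and H2BP3 had 95.2 in C and 2.23 in V, with 5.42 ± 0.52 in the authors' deposited table. H2BP1, at 2.86 ± 0.50 in the authors' deposited table, shares 73.6% of its stretches with other genes, H2BC18 among them. The lowest was H2AZP1, at 1.22 ± 0.30 in the authors' deposited table. Another 4 rows named as H3 pseudogenes (H3P1, H3P4, H3P14 and H3P36) fall outside the symbol rule and were not counted. They did not share a direction, since H3P36 was higher in V at -2.34 ± 0.28 (adjusted p = 3.24e-16 in the authors' deposited table) and the other 3 had positive changes.

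By position, the genes on chromosome 6 had larger listed changes than those on chromosome 1, a division chosen after the values were seen. The 32 genes on chromosome 6 had a median of 2.24, and 22 of them reached 2 in the authors' deposited table. The 8 genes on chromosome 1 had a median of 1.52, a range of 1.23 to 1.83, and none reached 2. The order held within each class present on both. In H2A the medians were 2.51 over 9 chromosome 6 genes and 1.64 over 2 chromosome 1 genes. In H2B they were 2.23 over 10 genes and 1.35 over 3 genes. In H3 they were 2.25 over 4 genes and 1.80 over 2 genes, and in H4 1.81 over 6 genes and 1.23 for H4C14 alone. With a mean of at least 500 required, 19 chromosome 6 genes had a median of 2.16 and 11 of them reached 2, while the 8 chromosome 1 genes were the same. No test was made, since genes in these libraries are not replicates. Genes of both chromosomes share transcript sequence. On chromosome 1, H3C15, H3C13 and H4C14 have over 50% of their 50-base stretches in common with other genes. On chromosome 6, so do H2AC7, H2AC13, H2AC14, H2AC15 and H4C11. The part of this in the division was not tested.

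On chromosome 6, gaps of over 200 kb part the listed genes into 4 neighbourhoods. The first (chr6:25726777-25732091) holds H2BC1 alone among listed clustered genes, at 3.87 ± 1.67 in the authors' deposited table. The largest (chr6:26020490-26273356) holds 15 listed genes with a median of 2.25, from 1.35 for H4C1 to 10.99 for H2BC10. The next (chr6:27125897-27147515) holds 4 genes, H2BC11, H2AC11, H4C9 and H2AC12, with a median of 2.41. The last (chr6:27807444-27893843) holds 12 genes with a median of 2.19, from 1.50 for H2BC15 to 3.28 for H1-5. On chromosome 1, 7 genes (chr1:149782689-149887916) had a median of 1.57, and H2BU1 (chr1:228458107-228460470) stood alone at 1.35.

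**Figure D3:**
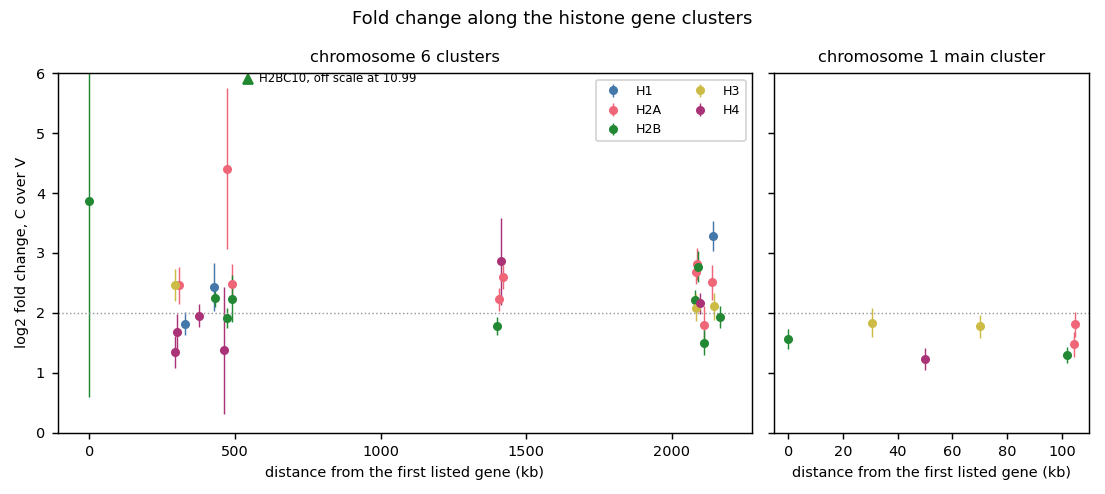
Log2 fold change of C over V with 95% intervals (y axis) against distance from the first listed gene (x axis, kb) for the chromosome 6 genes at left and the main chromosome 1 cluster at right, coloured by class, with H3C2 and H2BU1 not drawn. The dotted line marks 2, which no chromosome 1 gene reaches, and H2BC10 is off scale at 10.99.

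Many H2A and H2B genes stand head to head and share the stretch between their starts. RefSeq neighbours gave 13 histone pairs within 1000 bases, of which both genes are listed in 7, 1 gene in 4 and neither in 2. In 4 of the 7 the intervals of the partners overlap. H2AC14 and H2BC14 had 2.82 and 2.77, H2AC8 and H2BC8 had 2.48 and 2.23, H2AC15 and H2BC15 had 1.79 and 1.50, and H2AC20 and H2BC21 had 1.47 and 1.29 in the authors' deposited table. In the other 3 pairs the H2A gene had the higher change with intervals apart. H2AC13 had 2.67 against 2.22 for H2BC13, H2AC11 had 2.22 against 1.79 for H2BC11, and the little-read H2AC7 had 4.40 against 1.92 for H2BC7 in the authors' deposited table.

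Promoters were compared because listed members of all classes moved the same way while their classes are known to use different elements. RefSeq (GRCh38.p14) gave the 250 bases before the start for 37 members, of which 36 are replication-dependent. The stretches below show 1 gene per type of promoter, 5′ to 3′ on the gene's strand. They are H1-5 (chr6:27867589-27867838, minus), H2BC14 (chr6:27814772-27815021, plus), which spans the gap to its head-to-head partner H2AC14, H3C2 (chr6:26032100-26032349, minus) and H4C11 (chr6:27823842-27824091, plus). Capitals mark the motifs searched, on both strands.
H1-5: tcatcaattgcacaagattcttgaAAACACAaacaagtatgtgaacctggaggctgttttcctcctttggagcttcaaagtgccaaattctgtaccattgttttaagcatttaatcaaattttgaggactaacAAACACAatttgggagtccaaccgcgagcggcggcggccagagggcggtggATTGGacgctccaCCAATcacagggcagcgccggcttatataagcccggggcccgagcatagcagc
H2BC14: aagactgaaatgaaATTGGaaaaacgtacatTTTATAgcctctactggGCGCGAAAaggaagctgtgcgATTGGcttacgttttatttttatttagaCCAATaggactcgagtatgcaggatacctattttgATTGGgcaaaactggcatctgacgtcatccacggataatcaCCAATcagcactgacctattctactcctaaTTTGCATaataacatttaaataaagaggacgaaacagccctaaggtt
H3C2: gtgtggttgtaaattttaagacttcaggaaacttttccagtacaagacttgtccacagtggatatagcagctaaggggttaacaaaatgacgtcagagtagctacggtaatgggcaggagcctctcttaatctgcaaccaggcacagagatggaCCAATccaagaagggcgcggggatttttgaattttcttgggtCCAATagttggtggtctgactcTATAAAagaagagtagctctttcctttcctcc
H4C11: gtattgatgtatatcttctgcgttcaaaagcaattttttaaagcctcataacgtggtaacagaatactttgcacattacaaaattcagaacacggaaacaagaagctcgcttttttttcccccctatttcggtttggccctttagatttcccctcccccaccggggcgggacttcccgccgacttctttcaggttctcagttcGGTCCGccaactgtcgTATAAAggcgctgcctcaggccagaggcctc
H1-5 carries AAACACA, the core of the H1 box, and CCAAT, the box bound by NF-Y. H2BC14 carries TTTGCAT, the octamer core bound by OCT1, as well as CCAAT boxes and the reverse of the E2F site TTTCGCGC. H3C2 has CCAAT boxes and TATAAA, the TATA box bound by TBP. H4C11 has TATAAA and GGTCCG, the core of the H4 box bound by HINFP.

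The H2A and H2B promoters held the same motifs at like shares, and the other classes differed in some of them. The windows of head-to-head partners overlap and were searched on both strands, so 1 site can count for both an H2A and an H2B gene. The like shares of H2A and H2B are thus partly built in. CCAAT was in all 3 H1, 10 H2A, 13 H2B and 5 H3 promoters but in 1 of 5 H4 promoters, against 33% of 27305 promoters of the same length. TTTGCAT was in 8 of 10 H2A and 9 of 13 H2B promoters and in none of the H1, H3 or H4 promoters, against 3.98% of all promoters. AAACACA was in 3 of 3 H1 promoters and in no other clustered one, against 4.95% overall. GGTCCG was in 5 of 5 H4 promoters, 1 of 10 for H2A and 1 of 13 for H2B, against 9.33% overall. The H2A and H2B matches lie in the same stretch, between H2AC20 and H2BC21. TATAAA was in 24 of 36 clustered promoters against 11.1%, with all 5 of H3 and 1 of 3 of H1. TTTCGCGC was in 4 of 10 H2A and 4 of 13 H2B promoters and in none of the others, against 0.469% of all promoters. A match is a run of letters in a window and says nothing of binding.

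**Figure D4:**
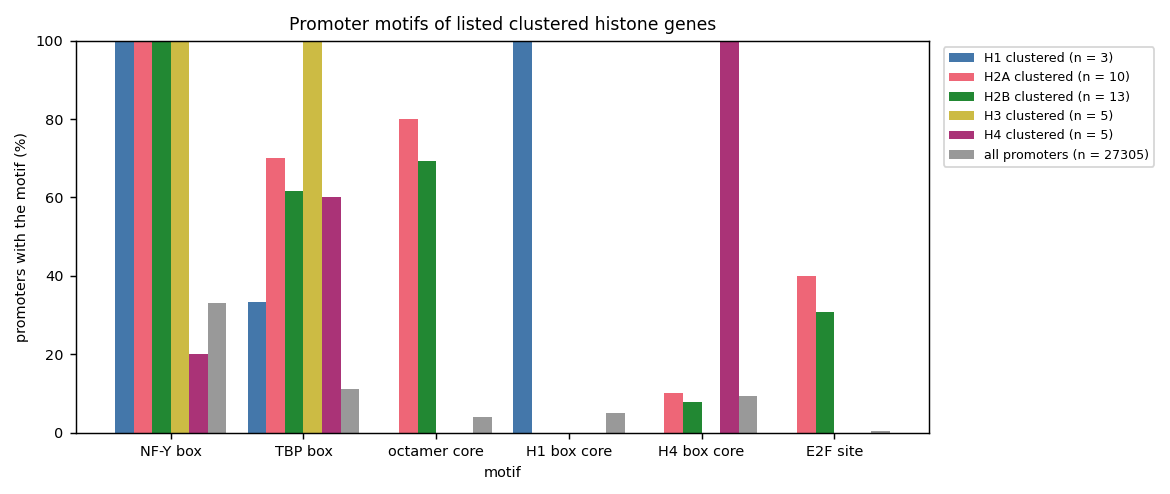
Share of promoters (y axis, %) that hold each motif (x axis) in the 250 bases before the start, for the listed clustered genes of each class and, in grey, for all 27305 promoters. NF-Y box stands for CCAAT and TBP box for TATAAA, and all motifs are counted on either strand. The octamer core is seen in H2A and H2B, whose windows overlap in head-to-head pairs. The H1 box core is seen in H1 and the H4 box core in all 5 H4 promoters.

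Members differed in how far their single-exon models go on past the stem-loop in the annotation, a division made with the values known. In 6 genes the single-exon model ends within 100 bases of it (H2AC8, H2AC13, H2BC5, H2BC13, H4C2 and H4C11). Their median change was 2.24, from 1.68 to 2.67. In 11 genes the single-exon model goes on for over 100 bases, and their median change was 1.77, from 1.23 to 2.86. Spliced transcripts were not measured. H2BC5 has 2 annotated transcripts and its gene reaches chr6:26171349, so its place in the first group holds for its single-exon model only. All genes of the first group lie on chromosome 6, while the second includes H2BC18, H2BC21, H2BU1, H3C15 and H4C14 of chromosome 1. This division is therefore mixed with that by chromosome. The chromosome 6 genes of the second group ran from 1.50 (H2BC15) to 2.86 (H4C9). Of 6 clustered genes known to make poly(A) messages in non-dividing cells, 3 are listed. All 3 were called higher in C, against 31.6% of listed protein-coding genes. Their changes in the authors' deposited table were 2.25 for H2BC5, 1.82 for H1-2 and 1.29 for H2BC21. H2AC6, H2BC4 and H2BC12 are not listed. The ranges of the groups overlap, and whether capture of tails bears on the order was not tested.

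Precision follows the reads behind a gene. In 18 replication-dependent genes the mean was at least 1000 normalised counts and in 3 it was under 100. In the band of 1000 to 10000 the median standard error was 0.10 over the 18 histone genes and 0.08 over the 222 other listed genes. Of those others, 6 (2.7%) had a larger standard error than H4C4 at 0.54, and 28 (12.6%) a larger one than H4C2. In the band of 100 to 1000 it was 0.13 over 19 histone genes and 0.15 over 1321 others, and only H2BC10 exceeded the 95th percentile of the others. Over all 40, the interval lay wholly above a log2 of 1 in 38, with H2BC1 and H4C4 the exceptions. Among called genes higher in C, it did so in 1893 of 2771 over all types and in 675 of 934 protein-coding genes. Against the median of 2.13, the intervals of 11 genes held it, those of 13 lay above and those of 16 below it.

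**Figure D5:**
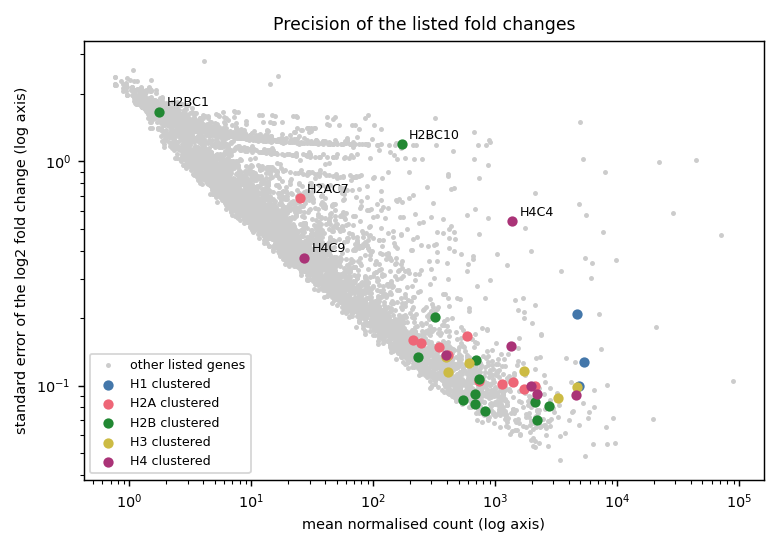
Standard error of the log2 fold change (y axis, log) against mean normalised count (x axis, log) for all listed genes in grey and the clustered histone genes in colour, from the authors' deposited table. Most histone genes lie among the others of like mean; H4C4 and H2BC10 lie high for their means, and H2BC1, H2AC7 and H4C9 have few reads.

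Shared sequence limits some members. For 39 of the 40 replication-dependent genes, the transcripts in GENCODE 29 were cut into 50-base stretches and looked up in all other genes, and the median share found elsewhere was 3.85%. In 26 genes it was under 10%, H1-2, H1-4, H1-5 and H4C4 (0% each) and H2BC10 (3.31%) among them. In 8 genes it was over 50%. These are H2AC13 (62.3%) and H2AC14 (83.7%), which share with each other, H2AC15 (100%), which overlaps H2BC15 on the other strand, H2AC7 (98%), H3C15 (100%) with its duplicate H3C14, H3C13 (80.4%), H4C11 (81.2%) with H4C12, and H4C14 (97.5%) with H4C15. Values of those 8 genes are uncertain as to which copy the reads came from.

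Among other genes of the pathway, those for histone transcription and message processing were mostly not listed. Of 22, 3 are listed, and all 3 were called higher in C, against 31.6% of listed protein-coding genes. E2F1 (1.84 ± 0.12) and E2F2 (1.39 ± 0.13), transcription factors of the G1 to S transition, and CDC25A (1.49 ± 0.12), the phosphatase that activates CDK2, had positive values in the authors' deposited table, that is, higher in C. MIER3, a corepressor subunit with no established role in histone messages, had been put in this list in error and is not in these counts. It stood on the side of V at -1.71 ± 0.09 in the authors' deposited table. SLBP, NPAT, CASP8AP2, LSM10 and LSM11, which act on histone genes or their 3′ ends, are not listed.

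Histone chaperones, which carry histones to DNA, had 10 listed genes of 36. All 10 were called higher in C, against 31.6% of listed protein-coding genes, with a median of 1.49 and a range of 1.28 to 2.87. NAP1L1, an H2A-H2B chaperone, had a derived level of 5692 in C and 778.3 in V, and was listed at 2.87 ± 0.09 (adjusted p = 5.73e-238 in the authors' deposited table). ASF1B, which carries H3-H4 and is tied to proliferation, was listed at 2.12 ± 0.12, NASP, which holds soluble H3 and H4, at 1.48 ± 0.10, and the nucleolar chaperone NPM1 at 1.29 ± 0.05 in the authors' deposited table. ASF1A, HIRA, DAXX, ATRX and the CAF-1 subunit genes CHAF1A and CHAF1B are not listed.

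S phase genes moved with the histone genes in direction. Of 24 such genes, 21 are listed, and all 21 were called higher in C, against 31.6% of listed protein-coding genes, with a median of 1.66 and a range of 1.22 to 2.21 in the authors' deposited table. Those with the smallest p encode subunits of the replicative helicase, MCM4 (2.07 ± 0.07), MCM3 (2.11 ± 0.08), MCM2 (2.05 ± 0.09) and MCM7 (1.73 ± 0.08), as the authors' deposited table lists them. Of the 40 replication-dependent histone genes, 22 reached 2, and 6 lay under 1.5. The part of S phase share in the histone levels was not tested.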

How the data were processed

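RNA of 3 C42-B-Abi and 3 C42B libraries was read as 50 bp single ends from 1 µg of total RNA, per the labels' protocols. Only 1 table was used, the authors' DESeq2 comparison of C over V, with no column per library. Its mean of normalised counts is a signal value computed by the authors, per the file headers. Per those headers, the authors estimated the log2 fold change, and the score columns hold its standard error and Wald statistic. Both p-value columns, raw and Benjamini-Hochberg adjusted, come from the authors' Wald test. The submitters' processing notes name FastQC and Cufflinks 2.2.1 but give them no role. Aligner, read counter and build of the genome: not given in the sources used here.

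Nothing was tested anew. The design foresaw limma or a count model if values per library were found, and listed values otherwise, and the second was followed. For 4 genes an adjusted p of 0 beside a p above 0 was read as not given. One member, H2BFS, took its symbol from the table's second symbol column. Positions and transcripts are from GENCODE 29 (GRCh38), which holds 49 of the 50 members described and lacks the listed identifier of H3C2. That gene was placed in its neighbourhood by its RefSeq gene position. Genes named in full were, by rule, the replacement variants, members higher in V, and in each class the 4 with the smallest p and the largest and smallest fold change, with up to 4 of each other list. One listed gene that meets the symbol rule is not reported here. The members and gene lists were chosen with earlier results of these data known. The steps were run in Python 3.11.15 with pandas 2.3.3, numpy 2.4.6 and matplotlib 3.10.9. Only the derivation of levels from a mean and a fold change was checked on simulated data, with equal group sizes. Alternatives were an adjusted p of 0.01, means of at least 10 or 100, larger fold changes, leaving out pseudogenes, weighted means, division by position and protein-coding background.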

Additional observations from a re-analysis of the deposited data

How the results depend on the processing

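Of 31 alternatives computed, 23 left the value close to that reported and 8 moved it. No median of a class could change sign, since all listed replication-dependent genes have positive changes. The count of histone genes called higher in C, 48, was 25 when fold changes of 2 or more on the log2 scale were required and 41 to 49 under the other alternatives. The count higher in V, 1 (H2BFS), was 0 with a mean of at least 10, 0 with a mean of at least 100 and 0 with the interval beyond a log2 of 1. Weighting by precision gave 2.26 for the H2A median of 2.48 and 1.83 for the H2B median of 1.93, and a mean of at least 100 gave 1.53 for the H4 median of 1.68. The median of replication-dependent genes exceeded the value of H2AZ1 by 0.90, and the difference was 0.87 when genes were divided by position in a cluster, which moves H2BU1, H2BS1 and H2BFS to the side of H2AZ1. The share of called genes higher in C was 51.5% over all genes and 34.1% over protein-coding genes, so the larger share lay with C over all genes and with V over protein-coding genes. No paired analysis was possible because the table has no value per library, and no replicate could be left out for the same reason. Depth is unknown, and 3 members, H2BC1, H2BC2P and H2BFS, have a mean under 10 normalised counts. Genes that miss the limits of the table are out of reach, so counts cannot be extended to the 30 unlisted replication-dependent genes.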
